A study of Mus musculus with 4 samples.

Results

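The cytosolic ribosomal protein genes were followed gene by gene through the cell classes of young and aged mouse glomeruli. Members were the genes whose symbol starts with Rpl or Rps and a digit, together with Rplp0, Rplp1, Rplp2 and Rpsa; pseudogene symbols that end in ps and a number, and the S6 kinases, were left out. The rule took 92 of 52636 gene IDs, 54 of the large subunit series (Rpl) and 38 of the small subunit series (Rps). Of these, 77 are core subunit genes, 13 are paralogous copies such as Rps27l and Rps4l, and 2 carry a matching symbol without being subunits of the mature ribosome (Rps19bp1 and Rpl7l1). A further 276 rows with pseudogene symbols lay outside the rule.

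The cytosolic ribosome joins a small subunit, which reads the mRNA, to a large subunit, which forms the peptide bond and releases the chain through an exit tunnel. Its proteins are made in matched amounts, and their mRNAs are abundant in nearly every cell. Many of these mRNAs begin with a C followed by a run of pyrimidines, the 5′ terminal oligopyrimidine (TOP) motif, through which mTORC1 and LARP1 control their translation. In the glomerulus the classes to be compared are podocytes, which carry the slit diaphragm, the capillary endothelium, the mesangial cells that hold the capillary loops, and the parietal cells of Bowman's capsule.

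Single-cell libraries were made from glomeruli of untreated mice, 2 from young and 2 from aged animals, after perfusion with magnetic beads, capture on a magnet and enzymatic dissociation. The labels give neither the age in months nor sex, strain or number of mice per library, and they do not state that replicates came from separate animals; the p-values below therefore measure the spread between libraries, which may be technical. Each library is 1 matrix of UMI (unique molecular identifier) counts from 3′ ends. The libraries are written as young 1, young 2, aged 1 and aged 2.

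The libraries held between 18457791 and 42046542 UMIs, and between 5035 and 9187 cells were kept in each. Classes were given to 23 of 27 clusters from marker genes, with the members left out of the clustering; the classes are podocyte-like, endothelial-like and so on, and are written without the suffix. Young 2 stood apart: 55.8% of its kept cells lay in clusters that mixed markers of unrelated classes, against 0.631% to 1.77% in the other libraries, and these cells were left out. Pairs of libraries shared 9 to 31 cell barcodes. The podocyte, endothelial and mesangial clusters carried 9 or more detected markers of their own class each, and UMI totals in the 4 glomerular classes ran from 203721 (parietal cells of young 1, 40 cells) to 14179803 (endothelial cells of aged 1, 5406 cells).

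The starts of 6 members are shown because the pyrimidine run at the first base is the feature these genes are known for, and because 5 of the 6 changed with age in endothelial or mesangial cells; the sixth, Rps6, encodes the subunit that S6 kinase phosphorylates. Each line holds 30 bases from RefSeq on GRCm38.p6, 5′ to 3′ on the gene's strand, with the annotated start at the sixteenth base. Capitals mark the run, a C followed by at least 5 further C or T bases, beginning at most 10 bases from the annotated start, searched on the gene's strand only. The search opened 10 bases before that start, so a run reaching further upstream was counted and marked only from there, as in Rps27l. The positions in the order shown are chr2:39005117-39005146 (minus strand), chr11:114668565-114668594 (plus), chr4:86857353-86857382 (minus), chr17:33824548-33824577 (minus), chr3:28805493-28805522 (plus) and chr9:66946071-66946100 (plus).
Rpl35: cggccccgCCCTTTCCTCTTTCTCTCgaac
Rpl38: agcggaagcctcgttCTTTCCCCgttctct
Rps6: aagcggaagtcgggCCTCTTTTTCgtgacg
Rps28: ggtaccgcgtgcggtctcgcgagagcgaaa
Rpl22l1: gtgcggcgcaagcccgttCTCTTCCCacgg
Rps27l: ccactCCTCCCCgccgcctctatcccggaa

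In Rpl38 the run begins at the annotated start, in Rps6 and Rpl35 it spans it, in Rpl22l1 it begins just after, in Rps27l it ends before it, and the Rps28 window holds none. Of the 92 members, 67 had a promoter in the RefSeq table, and 35 of these (52.2%) had such a run, against 21.1% of all 27025 genes in that table. The letters CCGGAA, searched on both strands over the 300 bases around the start, were in 53.7% of the 67 members and 16.7% of all genes. These matches describe the windows and name no bound factor. The members lie on 19 chromosomes, 15 of them on chromosome 7, so they do not form a single locus.

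A measuring limit comes with the family. Ribosomal protein genes have left many processed copies in the genome, and a 91-base stretch from the last 300 transcript bases was also found in transcripts of other genes for over 50% of positions in 30 members and for none in 42. Rpl35 is an example, with 95.2% of its end shared with 3 other genes, whereas Rps27l, Rpl39 and Rpl5 shared none. Besides Rpl35, genes named below with over 50% shared are Rps27, Rpl36a, Rpl6l and Rps12l1 (100%), Rps12 (93.3%), Rps27rt (86.2%), Rpl10a (84.3%) and Rps27a (83.8%). Rpl13 and Rps6 (80.0%), Rpl7a (75.2%), Rpl36al (62.9%), Rpl38 (58.6%) and Rpl22l1 (54.3%) also belong to them. The levels of Rpl35 and of these genes are uncertain, as are the percentages of pairs that hold them. The 276 pseudogene rows together took between 0.026% and 0.059% of the UMIs of each glomerular class and library. Antisense or overlapping partners were not resolved.

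The share of all UMIs that fell on members was higher in lymphocytes, monocytes and dendritic cells than in the glomerular classes. Among the latter, mesangial cells and podocytes overlapped, as did endothelial and parietal cells. Mesangial cells gave 5.70%, 5.17%, 7.01% and 6.69% in young 1, young 2, aged 1 and aged 2, podocytes 6.29%, 5.56%, 5.61% and 5.66%, and endothelial cells 8.99%, 7.79%, 9.51% and 9.73%. Parietal epithelial cells gave 9.52%, 8.56%, 8.76% and 9.11%, and smooth muscle and renin cells 7.50%, 7.04%, 6.50% and 7.26%. Lymphocytes had the highest shares, 22.93% to 25.92% in B cells and 25% to 31.62% in T and NK cells. Monocytes and dendritic cells lay between, at 15.80% to 18.90%. The 95% exact Clopper-Pearson interval was 5.67% to 5.73% for mesangial cells of young 1 and 9.39% to 9.64% for parietal cells of young 1, the smallest sum of the 4 glomerular classes; these intervals cover counting error only.

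**Figure D1:**
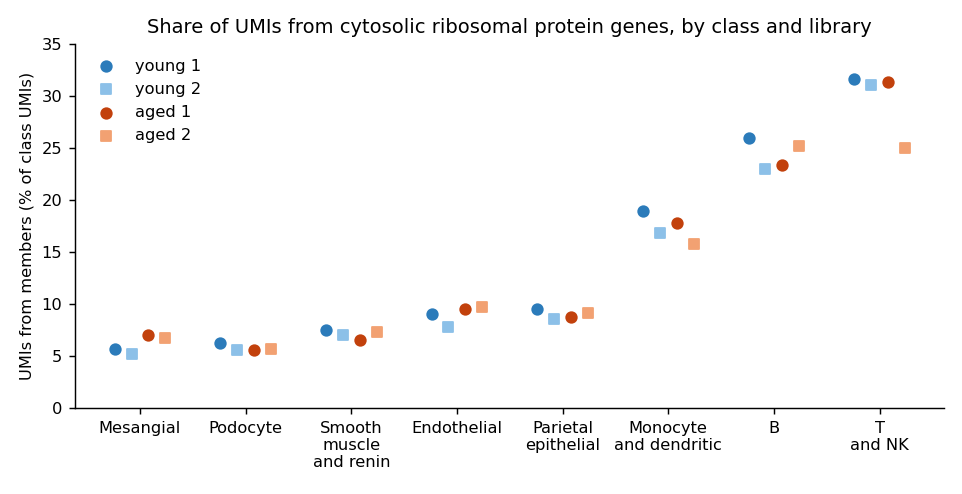
Share of UMIs from the 92 members (vertical axis, % of all UMIs of the class) in 8 cell classes and 4 libraries; each point is 1 library. The aged points lie above the young ones in mesangial cells (7.01% and 6.69% against 5.70% and 5.17%) and endothelial cells, while in podocytes aged points lie at the level of young 2.

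With age the share was higher in mesangial and endothelial cells and not in podocytes or parietal cells. In mesangial cells it was 5.43% ± 0.37 (SD, n = 2) in young and 6.85% ± 0.23 in aged libraries, a difference of 1.42 percentage points. In endothelial cells it was 8.39% ± 0.84 and 9.62% ± 0.16, a difference of 1.23 points. In these 2 classes the aged libraries exceeded the young ones without overlap, and the exact two-sided permutation test gave p = 0.33, the smallest that 2 against 2 libraries allow. In podocytes the means were 5.92% ± 0.51 and 5.63% ± 0.03 and in parietal cells 9.04% ± 0.67 and 8.94% ± 0.25, with overlapping libraries and exact permutation p = 1.0. Without young 2, the endothelial difference was 0.63 points and the mesangial one 1.15 points. In smooth muscle and renin cells, monocytes and dendritic cells, B cells and T and NK cells, the age groups overlapped.

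Gene by gene, mesangial cells gave the most members called for age. Of the 85 members that passed the filter on low counts, 25 were higher in aged mesangial cells and none was lower (edgeR's quasi-likelihood test, Benjamini-Hochberg adjusted p under 0.05 over all genes), where 7.76% of all genes tested were called and 4.6% were called higher. The members' median log2 change was 0.46, that of all genes -0.01, and 82 of 85 members had a positive change. In 81 members the aged libraries exceeded the young ones without overlap, as they did in 26.1% of all genes. An unadjusted p under 0.05 was reached by 65 members and by 2558 of 11185 genes. The 25 calls came from both subunits, 15 from the large, 8 from the small and 2 from paralogous copies. In every sum, fewer cells of a subtype and less RNA per cell cannot be told apart.

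The largest mesangial changes were those of Rps28, Rpl38 and Rpl39. Rps28, a protein of the head of the small subunit near the mRNA exit, had normalised levels (CPM, the counts scaled to the TMM-adjusted library total) of 213 and 179 in young and 400 and 355 in aged libraries, a log2 change of 0.94 (SE 0.15, edgeR adjusted p = 0.00351). Rpl38, on the large subunit surface, had 200 and 145 CPM in young and 324 and 310 in aged libraries, a log2 change of 0.87 (SE 0.17, edgeR adjusted p = 0.00903). Rpl39, a short protein that lines the exit tunnel, had 306 and 284 CPM against 545 and 494, a log2 change of 0.81 (SE 0.15, edgeR adjusted p = 0.00627). The aged levels of these 3 genes exceeded every young level.

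Rpl10a, which sits on the L1 stalk beside the exit site of tRNA, had 199 and 205 CPM in young and 338 and 350 in aged mesangial cells (log2 change 0.77, SE 0.14, edgeR adjusted p = 0.00687). Rpl13 rose from 745 and 709 to 1200 and 1110 CPM, by 0.66 on the log2 scale (SE 0.15, edgeR adjusted p = 0.0221). Rps23, a protein of the decoding centre, rose from 466 and 454 to 695 and 668 CPM, by 0.57 (SE 0.15, edgeR adjusted p = 0.035). Rpl35, next to the tunnel exit, was low throughout, 33.1 and 31.9 CPM in young and 56.8 and 53.4 in aged libraries, with a log2 change of 0.76 (SE 0.17, edgeR adjusted p = 0.0196). None of these 4 genes overlapped between the age groups. Beside the fits without a young library, the call of Rpl35 was lost with DESeq2 (adjusted p = 0.104), and that of Rps23 with total UMIs as the scale or with the mixed-marker cells kept (edgeR adjusted p = 0.0638 and 0.0594).

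Some subunit genes were not called in mesangial cells, although all of those named here except Rps15 had positive changes. Rplp0, the base of the P stalk that recruits elongation factors, had 760 and 694 CPM in young and 957 and 858 in aged mesangial cells (log2 change 0.32, edgeR adjusted p = 0.245), and the 4 P stalk genes had a median of 0.32 with no call. Rpl5 and Rpl11 carry 5S rRNA into the large subunit and bind MDM2 when assembly fails. Rpl11 had a log2 change of 0.50 (edgeR adjusted p = 0.0777) and Rpl5 of 0.10 (edgeR adjusted p = 0.737), with Rpl5 at 199 and 193 CPM in young and 202 and 218 in aged libraries. Rps15, of the small subunit head, had 436 and 429 CPM against 377 and 427 (log2 change -0.10, edgeR adjusted p = 0.726), the only core subunit gene with both aged mesangial libraries below both young ones. Rps6 (263, 222, 320 and 320 CPM in young 1, young 2, aged 1 and aged 2), Rpsa, which doubles as the laminin receptor precursor, and Rps27a, made as a fusion with ubiquitin, had log2 changes of 0.40, 0.55 and 0.47 and were not called (edgeR adjusted p = 0.131, 0.0663 and 0.0806).

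The young and aged mesangial cells lay mostly in different clusters. The first of these contained 297, 204, 34 and 18 cells from young 1, young 2, aged 1 and aged 2, and the second 20, 17, 666 and 531. In the first cluster the members' share was 5.67% and 5.15% in the young libraries and 6.30% in aged 1; in the second it was 6.21% in young 1 and 7.03% and 6.70% in the aged ones, the other sums having under 20 cells. No fit could be made within either cluster. Mesangial calls moved with the library left out, in the members and in all genes alike. Without young 1 or young 2 the members' calls were lost, and far fewer of all genes were called. The members' median change was then 0.57 and 0.39. Without aged 1 or aged 2 more members and more of all genes were called, and the members' median was 0.41 and 0.55. Each of these fits leaves 1 library in a group. With total UMIs as the scale, 11 members were called and the median of all genes moved to -0.15, the members' median being 0.33.

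In endothelial cells most members had a positive change and few were called. Of 85 members tested, 3 were higher and 1 was lower, where 6.38% of all genes were called (4.24% higher, 2.14% lower), so the share of members called was below the background. The members' median log2 change was 0.34, that of all genes -0.01, and 80 of 85 were positive. The aged libraries exceeded both young ones in 66 members, against 24.3% of all genes, and 32 members had an unadjusted p under 0.05, as had 2373 of 12736 genes. With total UMIs as the scale 16 members did, and the median was 0.22 beside -0.13 for all genes. By role the medians were 0.34 for the 46 large subunit genes and 0.32 for the 31 small subunit genes.

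The 3 endothelial genes that rose were Rps27l, Rps28 and Rpl35. Rps27l, a p53-inducible paralogue of Rps27, had 202 and 201 CPM in young and 344 and 325 in aged libraries, a log2 change of 0.73 (SE 0.15, edgeR adjusted p = 0.00338). Rps28 had 398 and 284 CPM against 511 and 554 (log2 change 0.64, SE 0.17, edgeR adjusted p = 0.0261, lost under 5 of 14 alternatives), and Rpl35 had 61.3 and 65.6 against 97.9 and 96.3 (log2 change 0.62, SE 0.14, edgeR adjusted p = 0.0077). The young levels of Rps27l were nearly equal, whereas those of Rps28 differed by more than those of the aged libraries. Rpl39 (507 and 401 against 633 and 679 CPM) and Rpl38 (292 and 212 against 341 and 383) had log2 changes of 0.53 and 0.52 and missed the threshold (edgeR adjusted p = 0.0634 and 0.0706). Abundant subunit genes such as Rpsa (1400, 1040, 1650 and 1530 CPM in young 1, young 2, aged 1 and aged 2) had changes near the family's median.

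The endothelial count differed with the library left out. Relative to the young mean, the members' median level was 0.16 in young 1 and -0.16 in young 2, and 0.34 and 0.33 in the aged libraries, on the log2 scale. Without young 1, 38 members were called, all higher, with a median of 0.49; without young 2, 3 were called (2 higher) with a median of 0.18. With the mixed-marker cells kept, edgeR called no member in endothelial cells or in podocytes. Few genes of any kind were called there, 7 of 13360 in endothelial cells and 77 of 10995 in podocytes. Within each of the 8 endothelial clusters with at least 20 cells per library the median change was positive, from 0.18 to 0.47.

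**Figure D2:**
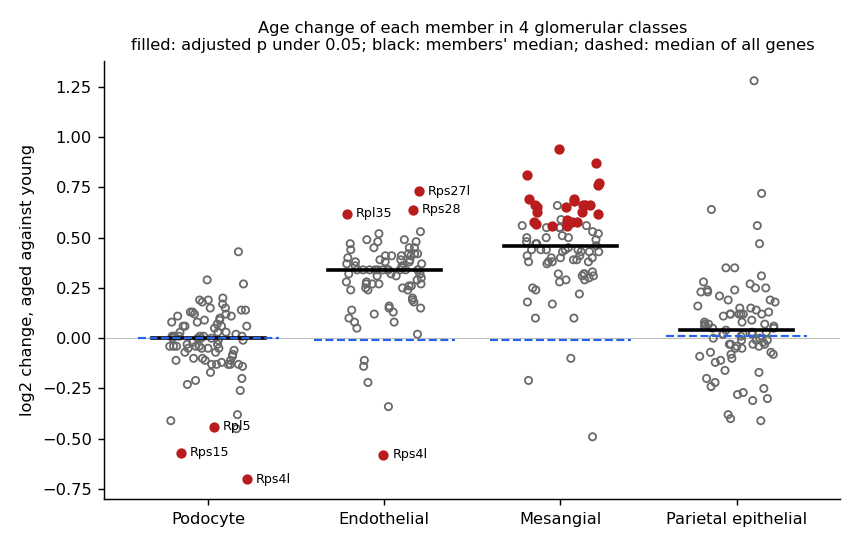
Log2 change with age (vertical axis, aged against young) of each of the 85 members tested in podocytes, endothelial, mesangial and parietal epithelial cells; each circle is 1 gene, filled where the adjusted p is under 0.05. The black lines mark the members' medians, 0.00, 0.34, 0.46 and 0.04, and the dashed lines the medians of all genes, which lie at or near 0.

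In podocytes 3 members fell and the median member did not move. The members' median log2 change was 0.00, as was that of all genes; 42 members were positive, 5 lay higher and 12 lower in both aged libraries, where 23.8% and 22.5% of all genes did. The 3 calls, where 5.89% of all genes were called and 1.96% were called lower, were Rps4l, Rps15 and Rpl5. Rps15 had 520 and 496 CPM in young and 291 and 396 in aged libraries (log2 change -0.57, SE 0.14, edgeR adjusted p = 0.014). Rpl5 had 270 and 277 CPM against 186 and 219 (log2 change -0.44, SE 0.13, edgeR adjusted p = 0.0454). For both, every aged library lay below every young one; the call of Rpl5 was lost under 6 of 14 alternatives, DESeq2 among them, and that of Rps15 under 2. Without aged 1 no podocyte member was called, and without young 1 or young 2 there were 13 and 9 calls, 8 of the 13 higher and all 9 lower.

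Rpl39 had the highest podocyte change, with 422 and 328 CPM in young and 483 and 531 in aged libraries (log2 change 0.43, SE 0.14, edgeR adjusted p = 0.0696). Rpl12, of the P stalk base, had 512 and 479 against 348 and 399 (log2 change -0.41, edgeR adjusted p = 0.0695), and Rps12, of the small subunit head, had 1350 and 1240 against 901 and 1090 (log2 change -0.38, edgeR adjusted p = 0.133). In both, the aged levels lay below the young ones without a call. Rps28, called in endothelial and mesangial cells, had 248, 179, 249 and 270 CPM in podocytes (log2 change 0.27, edgeR adjusted p = 0.343), and Rplp0 had 685, 554, 629 and 635 (log2 change 0.03, edgeR adjusted p = 0.956).

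Parietal epithelial cells, 40 to 80 per library, gave no call by edgeR among the 85 members and 0% of all genes were called; 1 member had an unadjusted p under 0.05, and DESeq2 also called none. Their median was 0.04, and 21 members lay higher in both aged libraries against 20.4% of all genes. At this depth changes of the size seen in mesangial cells could be missed: Rps28 had 85, 77, 179 and 274 UMIs and a log2 change of 0.35 with an SE of 0.23.

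**Figure D3:**
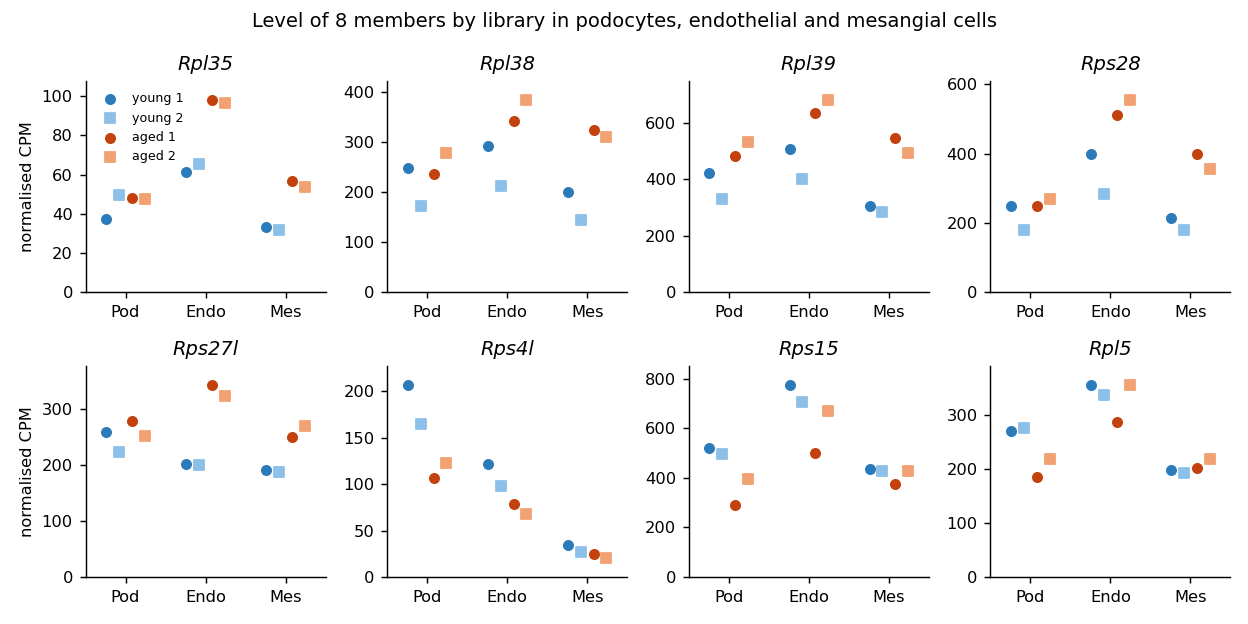
Normalised CPM (vertical axes, from 0) of 8 members in podocytes (Pod), endothelial (Endo) and mesangial (Mes) cells; each point is 1 library, blue for young and orange for aged. Rpl35, Rpl38, Rpl39 and Rps28 lie higher in both aged mesangial libraries, while Rps4l lies lower in the aged libraries of each class shown, for example 107 and 123 against 207 and 165 CPM in podocytes.

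The difference between classes in the age change was tested directly, with library as a block. Between podocytes and endothelial cells it passed in 37 of 85 members, where 6.72% of all genes tested passed and 4% passed in that direction, and in all 37 the change was more positive in endothelial cells. Rps27l differed by 0.62 on the log2 scale (SE 0.12, edgeR adjusted p = 0.000461), Rpl12 by 0.51 (SE 0.11, edgeR adjusted p = 0.00274) and Rps19, mutated in Diamond-Blackfan anaemia, by 0.51 (SE 0.11, edgeR adjusted p = 0.00291). Rps6 differed by 0.51, Rpsa by 0.46 and Rplp0 by 0.43 (edgeR adjusted p = 0.00473, 0.00754 and 0.0137). For Rpl35 (0.47, edgeR adjusted p = 0.0565) and Rpl5 (0.35, edgeR adjusted p = 0.0588) the difference missed the threshold.

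Between podocytes and mesangial cells it passed in 26 of 85 members, all more positive in mesangial cells, where 4.07% of all genes passed and 2.33% did so in that direction. Rpl13 differed by 0.81 (SE 0.16, edgeR adjusted p = 0.00566), Rps23 by 0.74 (SE 0.16, edgeR adjusted p = 0.01) and Rpl12 by 0.71 (SE 0.16, edgeR adjusted p = 0.0115). Rps28 differed by 0.72 and Rpl5 by 0.59 (edgeR adjusted p = 0.0161 and 0.0361). Between endothelial and mesangial cells no member passed in edgeR or DESeq2, where 3.7% of all genes passed; 9 had an unadjusted p under 0.05 and the members' median difference was 0.15. The 3 comparisons share the same libraries and are not independent of each other. Without the library block, or with the mixed-marker cells kept, neither podocyte comparison gave a call, and without young 1 the mesangial one gave none and the endothelial one 13.

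**Figure D4:**
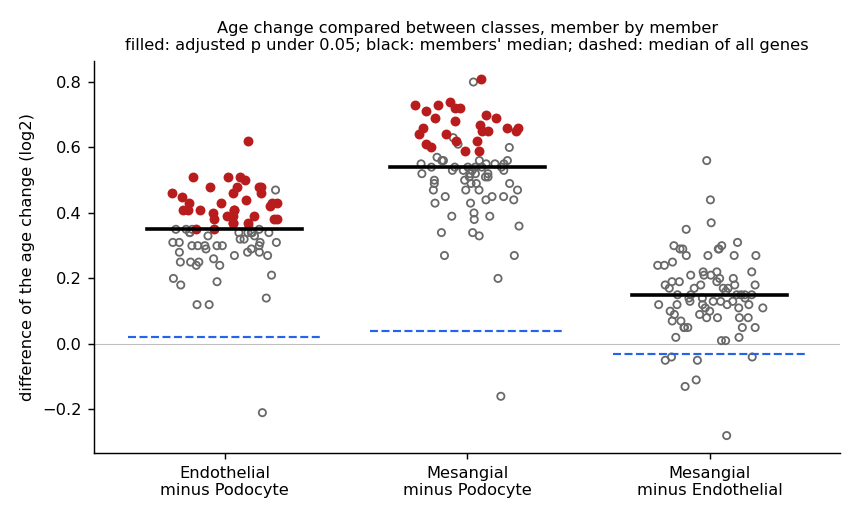
Difference between 2 classes in the log2 change with age (vertical axis) for each of 85 members; filled circles passed an adjusted p under 0.05. The medians (black) are 0.35 for endothelial against podocyte, 0.54 for mesangial against podocyte and 0.15 for mesangial against endothelial cells, beside medians of all genes (dashed) of 0.02, 0.04 and -0.03.

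Averaged over the young and aged libraries, endothelial cells had higher levels of most members than either other class. The fits of level held library and class but did not separate the ages. Against podocytes 79 of 85 members differed, 74 higher and 5 lower in endothelial cells, with a median of 0.79, where 78.6% of all genes differed (41.1% higher, 37.5% lower). The smallest p belonged to Rps14, at 1150, 911, 864 and 920 CPM in podocytes and 2560, 2070, 2360 and 2660 in endothelial cells (log2 difference 1.42, SE 0.11, edgeR adjusted p = 5.02e-07). Rpl27a differed by 1.12 (edgeR adjusted p = 1.38e-06). The 5 that were lower in endothelial cells were Rps19bp1, Rps4l, Rpl36al, Rpl21 and Rpl22l1, of which 3 are paralogous copies and Rps19bp1, a binding partner of Rps19, is no subunit. Rpl21, a core gene, is named for the small count, after its values were seen.

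Against mesangial cells 80 of 85 members differed, 79 higher in endothelial cells, where 60.4% of all genes differed (30.9% were higher in mesangial cells and 29.6% lower). Rps26 was lower by 1.00 and Rps12 by 1.01 on the log2 scale in mesangial cells (SE 0.08 and 0.09, edgeR adjusted p = 1.35e-06 and 1.46e-06). Rpl13a alone was higher in mesangial cells, by 0.47 (SE 0.11, edgeR adjusted p = 0.00254), with 72.3, 56.0, 77.2 and 81.6 CPM against 62.5, 41.9, 46.9 and 60.5 in endothelial cells. Between podocytes and mesangial cells 28 members differed, 18 higher and 10 lower in mesangial cells, where 71.7% of all genes differed (36.9% higher, 34.8% lower), and the median was 0.13. These values average over the ages. In both young libraries the members' share of UMIs was lower in mesangial cells than in podocytes (5.70% and 5.17% against 6.29% and 5.56%). In both aged libraries it was higher (7.01% and 6.69% against 5.61% and 5.66%). Rpl7a, Rpl27a and Rps14 were higher in mesangial cells by 0.59, 0.54 and 0.58 (edgeR adjusted p = 0.00248, 0.00345 and 0.00417).

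Of all members, Rps4l differed most between classes. Rps4l, a retroposed copy of the X-linked Rps4x on GRCm38 chr6:148354656-148355598 that GENCODE vM21 lists as a transcribed processed pseudogene, was highest in podocytes, with 207, 165, 107 and 123 CPM in young 1, young 2, aged 1 and aged 2. Endothelial cells had 122, 98.0, 78.7 and 68.3 CPM and mesangial cells 34.7, 26.7, 24.4 and 20.2. The mesangial level lay below that of podocytes by a log2 difference of -2.43 (SE 0.12, edgeR adjusted p = 3.59e-08) and below the endothelial one by -1.76 (SE 0.10, edgeR adjusted p = 3.96e-08). In T and NK cells no Rps4l UMI was counted, and B cells gave 3, 6, 0 and 1.

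Rps4l fell with age in podocytes and endothelial cells, against the direction of its family in the endothelium. The log2 change was -0.70 in podocytes (SE 0.14, edgeR adjusted p = 0.00162) and -0.58 in endothelial cells (SE 0.15, edgeR adjusted p = 0.0178). The endothelial call was lost under 3 of 14 alternatives, without young 1, without aged 2 and with the mixed-marker cells kept (edgeR adjusted p = 0.142, 0.224 and 0.165), and the podocyte call under 2. Mesangial and parietal cells gave -0.49 and -0.28 without a call (edgeR adjusted p = 0.19 and 0.763), and the age change did not pass the test of a difference between any pair of classes (edgeR adjusted p = 0.645, 0.593 and 0.894). Counted within the pair, Rps4l took 17.9% and 17.3% of the UMIs of Rps4l and Rps4x in young podocytes and 11.1% and 12.6% in aged ones. The same share was 6.48% and 6.32% against 3.8% and 3.35% in endothelial cells, 3.20% and 2.84% against 1.60% and 1.56% in mesangial cells, and 7.34% and 7.19% against 6.27% and 6.62% in parietal cells. The age groups did not overlap in any of the 4 classes. In parietal cells the gap was small and rested on 29 and 31 Rps4l UMIs in young and 46 and 61 in aged libraries. Only 1.4% of the end of Rps4l is shared with another gene.

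**Figure D5:**
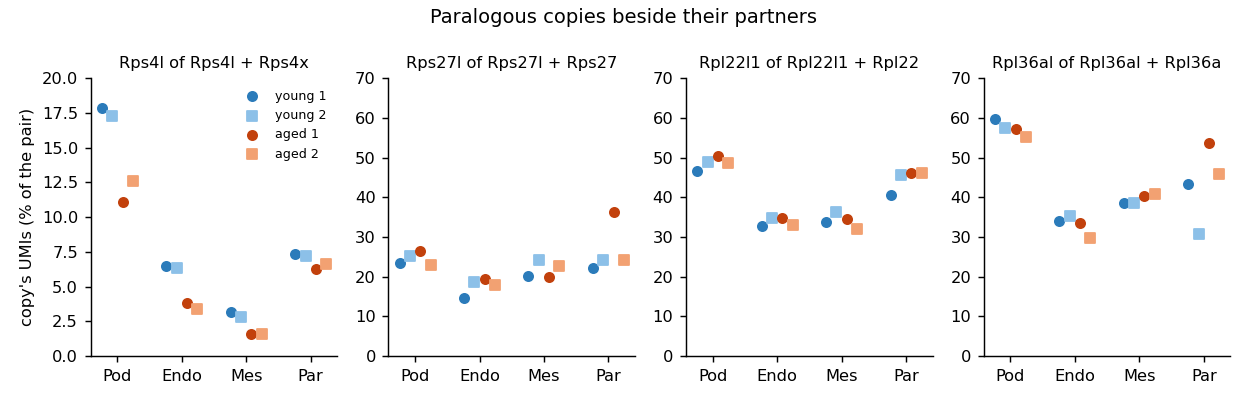
UMIs of 4 paralogous copies as a percentage of the UMIs of the copy and its partner (vertical axes from 0; the first panel has its own scale) in podocytes (Pod), endothelial (Endo), mesangial (Mes) and parietal (Par) cells; each point is 1 library. Rps4l lies lower in both aged libraries of each class, 11.1% and 12.6% against 17.9% and 17.3% in podocytes. Rpl36al also separates by age in each class, but in mixed directions. It lies lower in aged podocytes (57.3% and 55.1% against 59.8% and 57.6%) and endothelial cells (33.6% and 29.8% against 34% and 35.2%). It lies higher in aged mesangial cells (40.3% and 40.8% against 38.7% and 38.5%) and parietal cells (53.6% and 45.9% against 43.3% and 30.7%). Rpl22l1 and Rps27l separate in parietal cells only.

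Rpl22l1 and Rpl36al rose in mesangial cells together with their partners. Rpl22l1, the copy of Rpl22, rose in mesangial cells from 250 and 243 to 406 and 331 CPM (log2 change 0.58, SE 0.15, edgeR adjusted p = 0.0387, lost under 4 of 14 alternatives), and Rpl22 by 0.68 (edgeR adjusted p = 0.0198); its share of the pair was 33.7%, 36.4%, 34.6% and 32% in young 1, young 2, aged 1 and aged 2. Rpl36al, the copy of Rpl36a, rose from 204 and 181 to 314 and 308 CPM (log2 change 0.69, SE 0.14, edgeR adjusted p = 0.0134), and Rpl36a by 0.57 (edgeR adjusted p = 0.0331). Rpl36al held 55.1% to 59.8% of its pair in podocytes and 29.8% to 35.2% in endothelial cells. Rps27l held 14.5% and 18.7% of its pair with Rps27 in young endothelial cells and 19.4% and 18% in aged ones, so the age groups overlapped. Rps27 had a log2 change of 0.49 (edgeR adjusted p = 0.132) in endothelial cells. Rps27rt and Rpl37rt, retrogene copies by name, were not called in any of the 4 classes.

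The 7 members that did not pass the filter were all copies. Rpl10l, known from testis, and Rps12l1 had no UMI in the 4 glomerular classes, Rps3a2 had 3, Rpl3l, known from striated muscle, had 4, Rpl39l, another testis copy, had 18, Rps3a3 had 49 and Rpl6l had 60. Of the 2 genes that are no subunits, Rps19bp1 was highest in podocytes (71.5, 45.6, 53.6 and 60.9 CPM) and lower in mesangial cells (17.0, 7.82, 21.2 and 20.2), and Rpl7l1, which acts in pre-ribosome assembly, had an age change of -0.22 in endothelial and -0.21 in mesangial cells without a call.

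Among genes related by function, the other TOP mRNAs had positive medians in endothelial and mesangial cells, and also in parietal cells. The 19 translation factors and TOP-class host genes had median log2 changes of 0.26 in endothelial and 0.32 in mesangial cells and -0.03 in podocytes; in parietal cells the median was 0.20, with 13 positive and no call, beside 0.04 for the members. All 19 were positive in endothelial and in mesangial cells, and 17 and 16 lay higher in both aged libraries, where 24.3% and 26.1% of all genes did. In each of these classes 1 of the 19 was called, a share below the 6.38% and 7.76% of all genes, and in podocytes 1 was called lower. Snhg8, a small nucleolar RNA host, rose in endothelial cells by 0.83 (SE 0.14, edgeR adjusted p = 0.000669) and Gas5, another such host, in mesangial cells by 0.54 (SE 0.15, edgeR adjusted p = 0.0465). Fau, a ribosomal protein fused to a ubiquitin-like protein whose symbol lies outside the rule, had log2 changes of 0.36 in endothelial and 0.43 in mesangial cells. Rack1, on the small subunit head, had 0.12 and 0.28, and neither gene was called in either class.

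In endothelial and mesangial cells, lists of genes that build or regulate ribosomes had medians closer to 0 than the members. The 38 ribosome biogenesis genes had medians of -0.02, 0.14 and 0.06 in endothelial, mesangial and podocyte cells, with 0, 2 and 3 calls where 6.38%, 7.76% and 5.89% of all genes were called, and in parietal cells 0.41 over the 21 tested, without a call; Nop58, of box C/D snoRNPs, rose in podocytes by 0.74 (SE 0.13, edgeR adjusted p = 0.000407) and Ubtf, of RNA polymerase I, fell by 0.50 (SE 0.13, edgeR adjusted p = 0.0177). In mesangial cells Fbl, the box C/D methyltransferase, rose by 0.62 and Tsr1, of small subunit maturation, by 1.21 (edgeR adjusted p = 0.0465 and 0.047). The mitochondrial ribosomal proteins, 76 or 77 tested, had medians of -0.06, 0.05 and 0.04, with 1 call in endothelial, 1 in mesangial cells and none in podocytes. Among 17 listed genes of mTORC1 signalling, Ddit4, an inhibitor of the pathway, rose by 0.57 in endothelial cells and 1.07 in podocytes (edgeR adjusted p = 0.0296 and 0.0066). The 13 genes of ribosome rescue had medians of 0.05, 0.12 and -0.06 in endothelial, mesangial and podocyte cells and of 0.39 in parietal cells (9 tested). Of these, Map3k20, the kinase ZAK that reads stalled ribosomes, rose in endothelial cells by 1.01 (edgeR adjusted p = 0.00136).

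Other values differed between the age groups without overlap. Macrophages, whose member share was 15.29% and 14.34% in the aged libraries, numbered 570 and 502 cells there and 3 and 12 in the young ones. The 9 macrophage markers summed to 5.47 and 8.24 CPM in young and 29.5 and 32.4 in aged endothelial cells, and to 44.3 and 32.2 against 60.7 and 62.0 in mesangial cells; 6, 3, 0 and 0 of the 9 were at 0 in the endothelial sums and 2, 4, 1 and 1 in the mesangial ones. Podocyte markers were at 931 and 1360 CPM in young and 850 and 814 in aged endothelial cells. Mitochondrial UMIs made up 4.41% and 4.27% in young and 4.94% and 4.56% in aged mesangial cells. The early genes induced by dissociation made up 3.63% and 3.97% of UMIs in young and 2.96% and 3.50% in aged mesangial cells, and 2.66% and 2.65% against 2.89% and 3.15% in endothelial cells. The part of these values in the results was not tested. Median UMIs per mesangial cell overlapped between the ages, at 4980 and 3783 in young and 4488.5 and 7254 in aged libraries.

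Medians were also taken by features of the sequence. In mesangial cells the 39 tested members with an unshared end had a median of 0.46, with 11 called, and the 28 with over 50% shared had 0.50, with 9 called. In endothelial cells both sets had a median of 0.34. Members with a pyrimidine run beginning at most 10 bases from the annotated start had medians of 0.46 in mesangial and 0.38 in endothelial cells (34 tested). Those without such a run had 0.50 and 0.29 (30 tested). The run need not reach the start itself, as in Rps27l. Of the 25 members called in mesangial cells, all 25 had a positive endothelial change, with a median of 0.42, and 22 a positive podocyte change, with a median of 0.12. Among all 85 members tested, 80 were positive in endothelial cells (median 0.34) and 42 in podocytes (median 0.00). The 25 were picked as high in aged mesangial cells of the same libraries, so these values are no independent support.

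Outside the glomerular classes no member was called for age by edgeR. Of 82 to 85 members tested, 2 had an unadjusted p under 0.05 in smooth muscle and renin cells, 5 in monocytes and dendritic cells, 4 in B cells and 7 in T and NK cells, as had 356 of 3153, 756 of 6390, 192 of 1820 and 139 of 1483 genes, so the members' share was below that of all genes in each class. The shares of all genes called were 1.71%, 1.91%, 0% and 1.89%. The medians were -0.07, -0.05, -0.05 and -0.23, against -0.01, 0.00, 0.00 and -0.02 for all genes. The T and NK value came with a share of 25% in aged 2, where the other 3 libraries had 31.04% to 31.62%, from sums of 26 to 69 cells.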

How the data were processed

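The authors deposited raw UMI counts per gene and cell barcode, 1 matrix per library and not normalised; per the labels' protocols the reads came from the 3′ kit v3.1 and were aligned to GRCm38 with Cell Ranger 3.1.0, but version 6.0.1 stands in the file headers and the submitters' processing notes, so the version used is unsettled. Barcodes with at least 500 genes and at most 20% mitochondrial UMIs were kept; no barcode had under 500 UMIs. Scrublet's own threshold marked 0.449% of barcodes, so the highest scores were removed at 0.8% per 1000 barcodes (1876 cells). Cells were clustered without the members (scanpy 1.11.5, 2000 variable genes, 30 components, leidenalg 0.10.2). Cells with markers of unrelated classes stayed out. Counts were summed per class and library (20 cells or more) and tested with edgeR 4.0.16 (TMM, filterByExpr, quasi-likelihood F test, Benjamini-Hochberg over all genes); tests between classes had library as a block. The procedure was tested on simulated data.

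Members and gene lists were chosen with earlier results of these data known. "Ending in ps and digits" was read as a pseudogene suffix, since Rps27 would match otherwise. Genes were named by rule: in each class up to 4 called members per direction with the smallest p and separated libraries, fixed genes of each role, all copies, and 3 per direction for each pair of classes; partners of copies were added after their values were seen, and some genes the rule names are not reported here. Alternatives were other normalizations, filters, DESeq2 1.42.0, doublets or mixed cells kept, deeper cells, a replicate block, members allowed in clustering, and each library left out; fits within clusters were chosen after seeing the data. Gene positions came from GENCODE vM21 and start sequences from RefSeq.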

Additional observations from a re-analysis of the deposited data

Results flagged for a closer look

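The age change differed between classes in 37 of 85 members for podocytes against endothelial cells, where 6.72% of all genes passed. For podocytes against mesangial cells it differed in 26 of 85, where 4.07% passed. The test was of the difference itself (edgeR's quasi-likelihood test with library as a block, adjusted over all genes). In each of these members the change was the more positive one outside the podocytes. Both counts fell to 0 without the library block, where 158 of 12889 and 220 of 12803 genes passed. They were also 0 with the mixed-marker cells kept, where no gene passed in either comparison.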

How the results depend on the processing

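The members' median change stayed positive in endothelial and mesangial cells under all 14 alternatives (and within the 8 endothelial clusters fitted, those with at least 20 cells per library), but the counts of calls did not hold. Leaving out 1 library at a time, which assumes that the lone library varies like the other group, moved the calls between 0 and 13 in podocytes, 1 and 38 in endothelial and 0 and 64 in mesangial cells. In mesangial cells the count of all genes called moved in the same direction as the members' count. With 1 library left out, the members' medians ran from -0.13 to 0.13 in podocytes, 0.39 to 0.57 in mesangial and -0.08 to 0.22 in parietal cells. The difference in age change was called in 4 to 15 members for podocytes against endothelial cells, 0 to 69 for podocytes against mesangial cells and 0 to 4 for endothelial against mesangial cells, and the level differed between podocytes and mesangial cells in 15 to 32. The difference in share ran from -0.65 to 0.08 points in podocytes and from -0.58 to 0.37 in parietal cells, so its sign was not fixed in either. The labels do not say whether equal replicate numbers pair the libraries, and the values leave this unsettled. The correlation of the replicate 1 deviations was 0.02, 0.11, 0.05 and 0.47 in podocytes, endothelial, mesangial and parietal cells. With replicate number as a block the calls were 6, 13, 54 and 0. Without the library block, the differences in age change from podocytes gave 0 calls in both comparisons. With mixed cells kept, podocytes, endothelial cells and both differences from podocytes gave 0 calls, and the podocyte to mesangial level difference 12. Of all genes, 77 of 10995 were then called in podocytes and 7 of 13360 in endothelial cells, and none in either difference. Total UMIs as the scale gave 6 podocyte and 11 mesangial calls, a mesangial median of 0.33, an endothelial median of 0.22 (beside -0.13 for all genes) and 24 calls for podocytes against endothelial cells. No filter on low counts gave 8 endothelial calls, 48 mesangial calls, a parietal median of 0.18 and 63 calls for podocytes against mesangial cells, which RLE scaling gave as 11 and keeping doublets as 14; keeping doublets gave 1 for endothelial against mesangial cells. Fits within clusters gave 5 calls in podocyte cluster 8, and 2, 7, 0, 0, 0 and 1 in endothelial clusters 0, 10, 22, 4, 7 and 9. The cause of these shifts was not tested. Depth limited the parietal, smooth muscle and lymphocyte sums, in which fewer genes passed the filter than in podocytes, endothelial or mesangial cells.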
